A study of Mus musculus with 10 samples.

Results

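The kidneys described here are those of the 6 mice with aristolochic acid nephropathy (AAN), out of 10 mice in the whole series. They were wild-type (WT) male C57BL/6 mice, 8 weeks old, given aristolochic acid in PBS into the peritoneum, 1 injection of 5 mg/kg, and RNA was taken from the renal cortex on day 28. All 6 belong to this single group, carry no engineered allele and are compared only with each other, without the PBS-treated mice. They are called by the tags that the labels give them: A483, B630, B639, B666, B642 and B614. RNA was sequenced as paired-end libraries, and the values are FPKM (fragments counted on a gene, divided by its length and by the size of the library), 1 value per gene and mouse. The mice were ordered by a proximal tubule score, the mean log2(FPKM + 0.1) of *Slc34a1*, *Slc5a2*, *Slc22a6*, *Slc22a8*, *Lrp2*, *Cubn* and *Slc27a2*. The 12838 genes other than these 7 whose AAN mean reached 1 FPKM were then set against this order. The score is an order of proximal tubule RNA only, since no histology or kidney function of the single mice was analysed here.

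Proximal tubule cells reclaim most of the filtered phosphate, glucose, amino acids and protein, and live mainly on the oxidation of fatty acids. They also take up organic anions from the blood, and this is how aristolochic acid enters them, after which its reactive metabolites bind DNA. A damaged tubule loses its transporters, expresses injury genes such as *Havcr1* (KIM-1) and is surrounded by macrophages, lymphocytes and matrix-producing fibroblasts. In RNA of whole cortex, fewer cells of a type and less RNA per cell cannot be told apart.

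The order was that of 1 mouse against 5. The score was 5.08 in A483, 5.17 in B630, 5.26 in B639, 5.48 in B666, 5.66 in B642 and 7.08 in B614. The 5 lower mice spanned 0.58 on the log2 scale (1.498-fold), and the gap from the highest of them to B614 was 1.42 (2.67-fold). All values per mouse below are given in this order, from A483 to B614.

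The genes of the score did not agree on the order of the 5 lower mice. *Slc22a6* (ENSMUSG00000024650, GRCm38 chr19:8618039-8628299, plus strand), the organic anion transporter OAT1, was at 7.15, 7.35, 8.399, 11.8, 13.7 and 117 FPKM, in full order and 13.9-fold higher in B614 than the median of the others. *Slc22a8* (ENSMUSG00000063796, chr19:8591254-8611835, plus strand), its neighbour that encodes OAT3, was at 8.29 FPKM in A483, at 24.4 to 32.6 in the next 4 mice and at 120 in B614. Without this gene A483 moved from rank 1 to rank 3 from below, while leaving out any of the other 6 genes moved no mouse.

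The remaining score genes also had their highest value in B614. *Slc34a1*, the sodium-phosphate cotransporter of the brush border, was at 518, 390, 437, 502, 708 and 1487 FPKM. *Lrp2* (megalin), the receptor for filtered protein, was at 21.3, 13.5, 14.9, 25.4, 24.8 and 70.0 FPKM, and *Cubn* (cubilin), its partner, at 7.87, 6.39, 7.34, 9.66, 10.9 and 23.5. The differences were smaller for *Slc5a2* (SGLT2), the glucose transporter, at 47.6 to 65.2 FPKM in 5 mice and 90.3 in B614. They were smallest for *Slc27a2*, a fatty acid transporter, at 165 to 200 FPKM in 5 mice and 267 in B614.

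**Figure D1:**
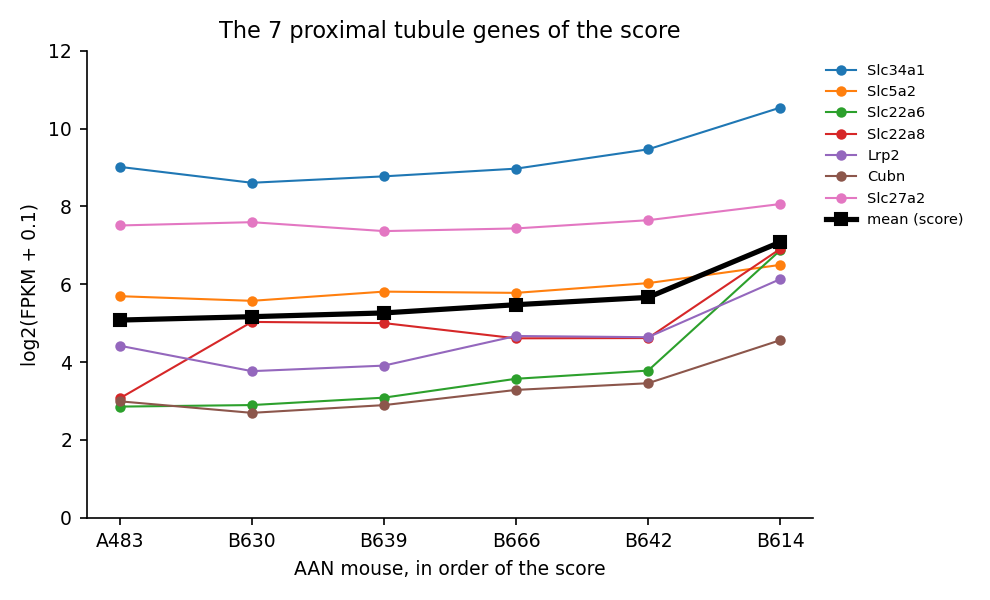
log2(FPKM + 0.1) of the 7 score genes (thin lines) and their mean, the score (thick black line), in the 6 AAN mice. The score runs from 5.08 to 5.66 in the 5 lower mice and is 7.08 in B614, and *Slc22a8* is low in A483 alone.

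The bases before the start sites of 4 proximal tubule genes are shown, as RefSeq gives them on GRCm38.p6: the 3 score genes that hold a short run of letters in this window, and *Pck1*. The capitals mark the letters GTTAAT or their reverse complement ATTAAC, which are part of the site of HNF1, a transcription factor of the proximal tubule. The 250 bases before the start of *Slc34a1* (chr13:55399398-55399647, plus strand), *Slc22a6* (chr19:8617746-8617995, plus strand), *Slc22a8* (chr19:8592932-8593181, plus strand) and *Pck1* (chr2:173152823-173153072, plus strand) follow. *Pck1* is a gluconeogenesis gene that was not part of the score and follows its order. Among the named genes that follow and have a RefSeq promoter here, *Pck1* alone holds these letters in this window. *Smim26*, named among those that oppose, holds them too, and its bases are not shown.
Slc34a1: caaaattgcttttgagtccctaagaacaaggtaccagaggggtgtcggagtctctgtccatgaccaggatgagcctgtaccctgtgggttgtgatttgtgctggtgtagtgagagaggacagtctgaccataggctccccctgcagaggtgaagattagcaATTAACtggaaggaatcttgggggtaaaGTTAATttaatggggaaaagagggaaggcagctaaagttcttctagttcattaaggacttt
Slc22a6: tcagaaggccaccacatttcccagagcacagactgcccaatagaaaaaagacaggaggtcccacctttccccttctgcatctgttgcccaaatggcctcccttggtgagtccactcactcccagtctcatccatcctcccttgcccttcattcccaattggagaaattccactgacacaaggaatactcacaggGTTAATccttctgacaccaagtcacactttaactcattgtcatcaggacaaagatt
Slc22a8: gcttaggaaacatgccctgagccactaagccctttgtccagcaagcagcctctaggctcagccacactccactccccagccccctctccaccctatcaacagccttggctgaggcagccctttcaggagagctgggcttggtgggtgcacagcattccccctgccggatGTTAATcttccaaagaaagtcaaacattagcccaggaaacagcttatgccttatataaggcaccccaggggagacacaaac
Pck1: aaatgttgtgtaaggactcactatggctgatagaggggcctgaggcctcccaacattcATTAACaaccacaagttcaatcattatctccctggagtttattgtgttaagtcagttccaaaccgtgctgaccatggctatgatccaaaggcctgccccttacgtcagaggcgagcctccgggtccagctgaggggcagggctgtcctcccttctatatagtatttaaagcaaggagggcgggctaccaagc
Over the window from 250 bases before to 50 after the start, on either strand, these letters stood in 538 of 9666 tested genes with a promoter in the table (5.57%). They stood in 16 of 156 genes that follow the order (10.3%) and in 10 of 205 that oppose it (4.88%). Among the score genes with a promoter in the table the number was 3 of 6 (50.0%), and among the other proximal tubule genes of the lists 8 of 34 (23.5%). These shares are descriptions, and no binding was measured.

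Few genes kept the order of the 6 mice. A gene is said to follow the order where its rho with the score is above 0 and passes the test named next, and to oppose it where its rho is under 0. By an exact Spearman test over all 720 orders (two-sided p of at most 0.05), 221 of the 12838 genes followed the score, which is 1.72% of those tested, and 251 opposed it, 1.96%. Without ties the test is passed from a rho of 0.886 (exact p = 0.0333), a level that 3.33% of all orders reach, and the 472 genes together were 3.68%. After Benjamini-Hochberg adjustment 0 genes passed, with a smallest adjusted exact p of 0.604. Pearson's r, also with an exact permutation test, passed unadjusted in 1013 genes above 0 and 1173 under 0, and in 0 genes after adjustment (smallest adjusted p 0.284). The genes below that follow or oppose are therefore a description of these 6 kidneys. Without *Slc22a8* in the score, 1414 of the 12838 genes followed and 731 opposed, in place of 221 and 251, so the counts depended on this 1 score gene.

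The calls also rested on the scaling of the FPKM. After rescaling by the median of ratios, which exchanges the places of B630 and B639, 219 genes followed, of which 53 were among the 221 (24.0% of the first list and 24.2% of the second). For opposing genes 13 were shared, 5.18% of the 251 and 6.10% of the 213 found after rescaling.

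The slope of each gene on the score, fitted with limma, gave more calls, and they were those of B614. With a limma adjusted p of at most 0.05, 332 genes had a slope above 0 (2.59%) and 473 a slope under 0 (3.68%). B614 was the highest mouse in all 332 and the lowest in all 473. Leaving out B639, B666 or B642 left 75, 97 and 117 calls, and leaving out A483 or B630 left 813 and 738. Without B614 limma called 0 genes (459 at an unadjusted p under 0.05, smallest adjusted p 0.557), and with the ranks of the 6 mice in place of the score it also called 0 (1168 unadjusted). Among the 5 lower mice, 67 genes had a rho of 1 (0.522%) and 45 a rho of -1 (0.351%). A limma slope below is therefore the difference of B614 from the rest, per unit of score, and rests on 1 mouse.

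The distance of B614 from the others went through the whole profile. It lay over 2-fold from the median of the other 5 in 2002 genes, 871 above and 1131 below. The numbers were 311 for A483, 960 for B630, 646 for B639, 336 for B666 and 463 for B642. Across genes, which are not independent replicates, Pearson's r of log2 values was 0.925 to 0.970 among the 5 lower mice and 0.851 to 0.912 between them and B614. Genes above in B614 went with the score among the other 5 mice in 66.0% of cases (rho above 0), against 58.2% of all genes tested. For genes below in B614, 50.0% had a rho under 0 among the other 5, against 41.8% of all. Under the 3 rescalings the first share was 64.0% to 66.2% against 43.2% to 50.4% of all genes, and the second 61.4% to 66.4% against 49.6% to 56.8%.

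**Figure D2:**
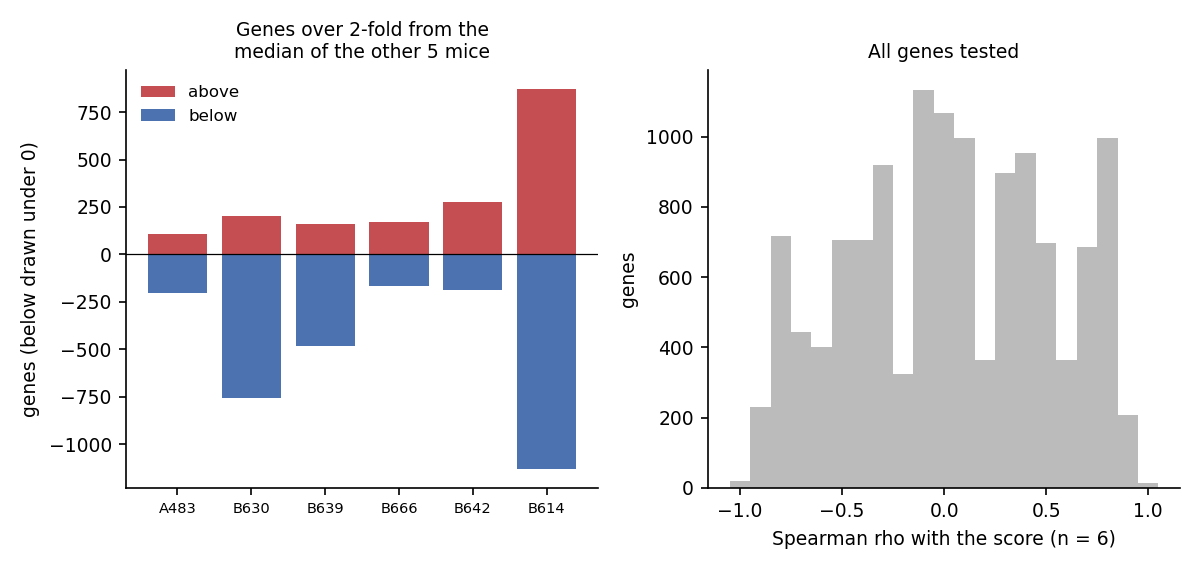
Left, number of genes that lie over 2-fold above (red) or below (blue, drawn under 0) the median of the other 5 mice, for each AAN mouse in order of the score. Right, histogram of Spearman's rho with the score over the 12838 genes tested. B614 has 2002 such genes and the other mice 311 to 960.

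The libraries differed in composition. The depth recovered from low FPKM values was 13.4 to 16.5 M fragments. Mitochondrially encoded genes took 32.9%, 55.03%, 44.8%, 33.0%, 21.4% and 34.1% of all FPKM, with the highest share in B630 and the lowest in B642. Of 5 library measures, the FPKM total came closest to the order (rho = -0.83, exact p = 0.0583, adjusted 0.292, and r = -0.52, exact permutation p = 0.25, adjusted 0.625, or -0.29 without the mice farthest from the median score). The part of composition in the results was not tested beyond the rescaled values given beside them. Of 6 genes of the adrenal cortex and 8 listed genes of adipocytes, only *Fabp4* reached a mean of 1 FPKM.

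The markers of injury, matrix and leukocytes did not keep the order. *Havcr1* (ENSMUSG00000040405) was at 89.4, 46.8, 65.2, 188, 108 and 44.2 FPKM, highest in B666 and similar in B630 and B614, the second lowest and the highest mouse of the score. Its mean was 90.2 ± 53.8 FPKM (SD, n = 6), its rho -0.09 (exact p = 0.919) and its r -0.35 (exact p = 0.507, 0.71 without the mice farthest from the median score). *Col1a1* (ENSMUSG00000001506), a chain of the main fibrillar collagen, was at 54.3, 70.6, 66.3, 86.2, 72.9 and 29.9 FPKM, lowest in B614 and highest in B666, with a mean of 63.4 ± 19.4 (SD, n = 6). Its rho was 0.03 (exact p = 1) and its r -0.80 (exact p = 0.153, 0.91 without those mice). The sign of rho for *Col1a1* turns with the scaling, to -0.26 after the median of ratios or quantile normalization. *Ptprc* (CD45, ENSMUSG00000026395), carried by all leukocytes, was at 6.91, 5.73, 4.18, 5.42, 6.93 and 4.54 FPKM, with a rho of -0.20 (exact p = 0.714) and an r of -0.40 (exact p = 0.533, -0.47 without those mice). After adjustment over all genes the p-values of these markers were 0.951 to 1 for rho and 0.357 to 0.711 for r. Leaving out B614 gave a rho of 0.60 for *Havcr1*, 0.80 for *Col1a1* and 0.10 for *Ptprc* over 5 mice (exact p = 0.35, 0.133 and 0.95). The order is therefore called here by its proximal tubule genes. The wider list of injured tubule genes, of which most were lowest in B614, is given further on.

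**Figure D3:**
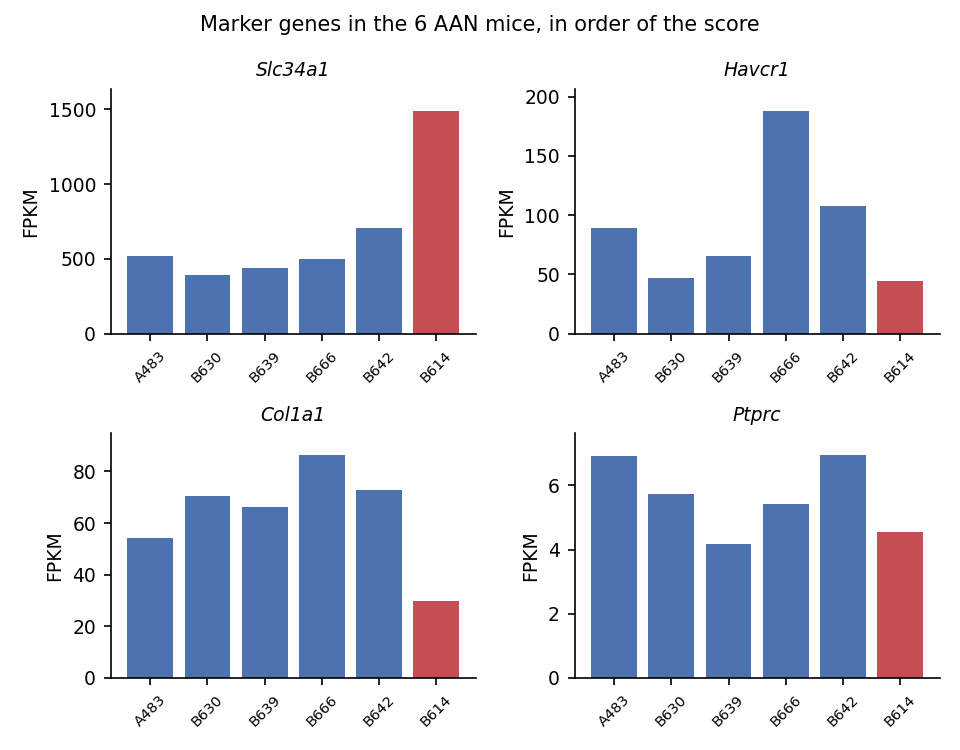
FPKM of *Slc34a1* (proximal tubule), *Havcr1* (injured tubule), *Col1a1* (matrix) and *Ptprc* (leukocytes) in the 6 AAN mice, in order of the score, with B614 in red. *Slc34a1* is highest in B614 at 1487 FPKM, while *Havcr1* is highest in B666 at 188 and *Col1a1* lowest in B614 at 29.9.

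The groups of genes that follow are described by the mouse in which they were highest or lowest. Over all 12838 genes the highest value was in A483 for 14.2%, in B630 for 9.34%, in B639 for 13.5%, in B666 for 16.2%, in B642 for 19.2% and in B614 for 27.6%. The lowest value was in B614 for 35.1% and in B630 for 36.3%. Of all genes, 1.72% followed the order and 1.96% opposed it, and limma called 2.59% above 0 and 3.68% under 0. These shares are what each count of a group is to be read against, and no group was tested as a whole.

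Most other genes of the proximal tubule were highest in B614, and few of them followed the whole order. Of 42 tested, 6 followed the order, beside 1.72% of all genes, and 0 opposed it. Their median rho was 0.66 against 0.03 over all genes (0.40 against 0.20 without B614), and 33 were highest in B614, as were 27.6% of all genes. limma called 17 above 0, beside 2.59% of all genes, and 0 under 0. *Slc13a3*, a dicarboxylate transporter, was at 7.71, 7.74, 8.44, 14.6, 12.3 and 68.5 FPKM (limma slope 1.59 ± 0.13 SE, adjusted p = 0.0109). *Pck1* was at 55.3, 68.6, 96.3, 75.4, 111 and 385 FPKM (1.31 ± 0.15, limma adjusted p = 0.0184). *Dpep1*, a brush border dipeptidase, was at 18.3, 22.6, 28.8, 25.7, 46.9 and 103 FPKM.

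Of the same 42 genes, 7 were highest in B630 instead, a mouse near the lower end of the order, beside 9.34% of all genes. These were *Slc22a7*, *Slc22a13*, *Slc22a19*, *Slc6a18*, *Kap*, *Acsm3* and *Napsa*, grouped after their values were seen and given as a description only. *Slc22a7*, the organic anion transporter OAT2, was at 1.85, 11.4, 3.35, 1.37, 2.78 and 2.35 FPKM, 3.40-fold higher in B630 than in the next mouse. *Kap*, the androgen-dependent kidney protein, was at 447, 2204, 1161, 463, 303 and 1283 FPKM. *Slc6a18*, an amino acid transporter, was at 42.9, 77.4, 47.3, 54.4, 33.3 and 38.3 FPKM. Under each of the 3 rescalings 7 or 8 of the 42 were highest in B630, where 16.3% to 21.2% of all genes then were, so that the count was near that share.

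Enzymes of fatty acid oxidation were highest in B614 almost throughout. Of 21 tested, 20 had their highest value there, as did 27.6% of all genes, and 1, *Eci1*, in B642. The median rho was 0.66 against 0.03 over all genes (0.40 against 0.20 without B614). In this list 2 genes followed the order, *Acadl* and *Ehhadh*, beside 1.72% of all genes, and limma called 8 above 0, beside 2.59%. *Ehhadh*, the bifunctional enzyme of peroxisomes, was at 15.4, 14.5, 16.2, 17.7, 25.9 and 98.4 FPKM (slope 1.40 ± 0.12 SE, limma adjusted p = 0.0109). *Cpt1a*, which brings fatty acids into mitochondria, was at 47.4, 24.6, 36.4, 38.7, 57.2 and 142 FPKM (1.050 ± 0.200, limma adjusted p = 0.0382). *Ppara*, the nuclear receptor that drives these genes, was at 0.415 to 1.099 FPKM in 5 mice and 5.24 in B614 (1.57 ± 0.24, limma adjusted p = 0.0281). The 5 lower mice overlapped widely in these genes, and B614 stood outside their range in 20 of 21.

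The mitochondrially encoded genes had another order. Of 13, 12 were highest in B630 and 11 lowest in B642, with a median rho of -0.60 (-0.31 after the median of ratios), and 0 followed or opposed the score. *mt-Co1*, a subunit of cytochrome oxidase, was at 33359, 75005, 58045, 33163, 24446 and 32314 FPKM. After quantile normalization, which sets the highest genes of all mice to the same values, 4 of 13 were highest in B630.

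Segments beyond the proximal tubule also had their highest values in B614, without following the score in the other mice. Of 11 genes of the thick limb 9 were highest in B614, of 14 of the distal tubule and collecting duct 12, and of 10 of intercalated cells 9. Over all genes this share was 27.6%. limma called 1, 3 and 2 of them above 0, beside 2.59% of all genes, and 0, 1 and 0 under 0, beside 3.68%. Their median rho was 0.03, 0.31 and 0.20, against 0.03 for all genes. Without B614 it was -0.50, -0.20 and -0.35, against 0.20. Rescaled, these last medians were -0.30 to -0.20, -0.20 and -0.55 to -0.45, against -0.10 to 0. *Egf*, made in the thick limb and distal tubule, was at 1.99, 4.00, 2.26, 1.87, 1.46 and 71.9 FPKM, 18.0-fold higher in B614 than in the next mouse (limma slope 2.497 ± 0.492 SE, adjusted p = 0.0428). *Umod* (uromodulin) was at 313, 397, 147, 382, 177 and 1719 FPKM. *Slc12a1* (NKCC2), the thick limb transporter, was high in B630 as well, at 22.6, 78.4, 24.1, 26.5, 10.7 and 87.8 FPKM. *Slc12a3* (NCC), of the distal convoluted tubule, was at 77.9 to 124 FPKM in 5 mice and 465 in B614 (1.15 ± 0.25, limma adjusted p = 0.0459). *Fxyd4*, a sodium pump regulator of the collecting duct, ran the other way and opposed the order (1.96% of all genes), at 10.7, 13.4, 9.33, 9.52, 7.67 and 5.00 FPKM.

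Genes of the injured tubule were mostly lowest in B614. Of 22 tested, 15 were lowest in B614, against 35.1% of all genes, and 9 were highest in A483 (14.2% of all genes), 6 in B642 and 3 in B666. The median rho was -0.31 and without B614 0, against 0.03 and 0.20 for all genes. After the 3 rescalings it was -0.54 to -0.49, and -0.20 to -0.10 without B614, against -0.09 to 0.03 and -0.10 to 0 for all genes. 0 followed or opposed, and limma called 5 under 0, beside 3.68% of all genes. These were *Lcn2*, *Krt18*, *Krt19*, *Cxcl1* and *Sprr2f*. *Lcn2* (NGAL), the secreted injury marker, was at 71.9, 33.5, 50.3, 59.9, 50.3 and 12.7 FPKM (slope -1.052 ± 0.237 SE, limma adjusted p = 0.0482). *Krt19*, a keratin of injured epithelium, was at 22.7, 13.5, 20.9, 16.9, 11.5 and 4.56 FPKM (-1.06 ± 0.17, limma adjusted p = 0.0298). *Spp1* (osteopontin) was at 3020, 1769, 2330, 2558, 2444 and 1007 FPKM. A483 was the highest mouse for all 3 genes. *Vcam1*, by contrast, had its highest value in B642, at 48.2, 32.5, 56.5, 57.8, 85.6 and 37.5 FPKM, and *Cdh6* was higher in B614 (6.49 FPKM) than in any other mouse (2.72 to 6.12).

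Genes of fibroblasts and matrix were mostly highest in B666. Of 23 tested 18 had their highest value in this mouse (11 after the median of ratios, with 9 in B630), as did 16.2% of all genes, and 14 their lowest in B614, as did 35.1%. Their median rho was 0.03 (-0.14 to -0.03 rescaled) and without B614 0.60 (0.40 to 0.50 rescaled), against 0.20 for all genes (-0.10 to 0 rescaled). None followed or opposed the order, and limma called 2 under 0, *Timp1* and *Tnc*, beside 3.68% of all genes. *Timp1*, the inhibitor of matrix proteases, was at 55.8, 56.5, 68.3, 86.0, 71.2 and 10.2 FPKM (slope -1.35 ± 0.27 SE, limma adjusted p = 0.0407). *Tnc* (tenascin C) was at 15.1, 16.8, 17.0, 22.7, 16.1 and 5.84 FPKM. *Acta2*, the smooth muscle actin of myofibroblasts, was at 45.9, 61.6, 51.1, 85.2, 53.01 and 27.8 FPKM, with the same high and low mouse.

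Macrophage genes were lowest in B614 and highest mostly in B642. Of 19 tested 16 were lowest in B614, beside 35.1% of all genes, and 11 highest in B642 (7 to 10 rescaled), beside 19.2%. The median rho was -0.20 (-0.37 to -0.26 rescaled), and without B614 0.40 (0 to 0.20 rescaled, against -0.10 to 0 for all genes). limma called 2 of the 19 under 0, *Trem2* and *Spi1*, beside 3.68% of all genes. *C1qa*, a complement gene of macrophages, was at 806, 586, 755, 720, 936 and 222 FPKM. *Adgre1* (F4/80) did not go with it, at 20.5, 9.66, 10.4, 18.7, 21.2 and 22.3 FPKM, with its highest value in B614. Of 10 genes of alternatively activated macrophages 9 were lowest in B614, beside 35.1% of all genes, and limma called 4 under 0, beside 3.68%. *Arg1* was at 6.29, 3.54, 6.37, 13.7, 3.39 and 0.259 FPKM (slope -2.12 ± 0.45 SE, limma adjusted p = 0.0464), and *Ccl17*, a chemokine, at 38.0, 38.8, 89.1, 41.1, 40.0 and 7.70 (-1.37 ± 0.28, limma adjusted p = 0.0424). *Retnla*, not called by limma, was at 622, 200, 298, 560, 101 and 48.1 FPKM, so that A483 and B666 stood above the rest.

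Lymphocyte genes had their own high mice. Of 16 genes of T and NK cells 10 were highest in B642 and 6 in B639 (6 or 7 and 9 or 10 rescaled), while B614 held 10 of the lowest values. *Cd3e*, of the T cell receptor complex, was at 11.96, 16.8, 27.9, 12.4, 32.1 and 10.5 FPKM, and *Trbc2* at 38.9, 78.0, 122, 45.9, 86.5 and 23.7. B and plasma cell genes were highest in B642 in 11 of 11 (10 or 11 under each rescaling). *Igkc*, the kappa light chain, was at 613.8, 965, 697, 492, 2256 and 395 FPKM, and *Ighm* at 43.5, 44.9, 48.0, 46.3, 244 and 26.2. *Jchain*, of secreted antibody, was at 68.8 FPKM in B642 and 15.9 to 21.9 in the others. 0 genes of these lists followed, opposed or passed limma.

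B642, highest in 19.2% of all genes, was also the high mouse for antigen presentation, interferon response and mitosis. Of 8 MHC class II genes 7 were highest there (6 or 7 rescaled), of 18 interferon genes 12 (9 under each rescaling), and of 15 G2/M genes 15 (14 or 15 under each rescaling). *Cd74*, the invariant chain of MHC class II, was at 2930, 1758, 2890, 2584, 4375 and 1529 FPKM. *Gbp2*, induced by interferon, was at 55.5, 23.7, 64.9, 71.3, 150 and 53.8 FPKM, and *Cxcl9*, a T cell chemokine, at 23.3, 20.7, 41.0, 30.1, 56.6 and 16.4. *Cdk1*, the mitotic kinase, was at 2.46, 2.07, 2.43, 3.79, 5.18 and 1.91 FPKM. The direction of the G2/M list depended on B614: the median rho was 0.14 over 6 mice (-0.03 after quantile normalization) and 0.80 over the 5 lower mice (0.70 under each rescaling), against 0.03 and 0.20 for all genes. For the interferon list it was 0.09 and 0.75 (0.50 to 0.55 rescaled). *Rsad2* alone of these lists followed the order (1.72% of all genes), at 4.01 to 6.10 FPKM in 5 mice and 10.02 in B614, while *Mx1* had a limma slope under 0 (3.68% of all genes), at 3.38 to 6.20 in 5 mice and 1.71 in B614.

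S phase, p53 and sterol genes shared B666, highest in 16.2% of all genes, as their high mouse. Of 17 S phase genes 14 were highest in B666 (11 to 15 rescaled), of 18 p53 targets 12 (8 to 11 rescaled), and of 16 sterol synthesis genes 14 under every scaling. *Mcm3*, of the replicative helicase, was at 4.998, 3.56, 6.603, 8.92, 6.63 and 3.53 FPKM. *Cdkn1a* (p21), which p53 induces, was at 52.9, 24.4, 30.7, 61.7, 49.4 and 39.1 FPKM. *Cyp51*, of sterol synthesis, was at 8.14 to 12.3 FPKM in 5 mice and 21.9 in B666. None of the sterol genes followed, opposed or passed limma. Of the p53 list *Sesn2* followed the order (1.72% of all genes), at 13.7 to 19.4 FPKM in 5 mice and 20.6 in B614. In the same list *Aen* had a limma slope under 0 (3.68% of all genes).

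Immediate early genes, which cells induce within minutes of a stimulus, were highest in A483, the lowest mouse of the score. Of 14 tested 11 had their highest value there under every scaling, as did 14.2% of all genes, and 10 their lowest in B614, as did 35.1%. *Ccn1* (CYR61) was at 178, 29.2, 87.6, 73.1, 93.8 and 24.0 FPKM, 1.90-fold higher in A483 than in the next mouse. *Egr1* was at 12.8, 4.93, 8.41, 10.3, 9.50 and 5.12 FPKM, and *Ier3* at 74.1, 29.1, 36.8, 35.3, 43.7 and 26.7. Their median rho was -0.46 (-0.77 to -0.66 rescaled) and without B614 -0.10 (-0.60 to -0.50 rescaled), against 0.03 and 0.20 for all genes (-0.10 to 0 rescaled without B614). As deposited 0 followed, opposed or passed limma.

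**Figure D4:**
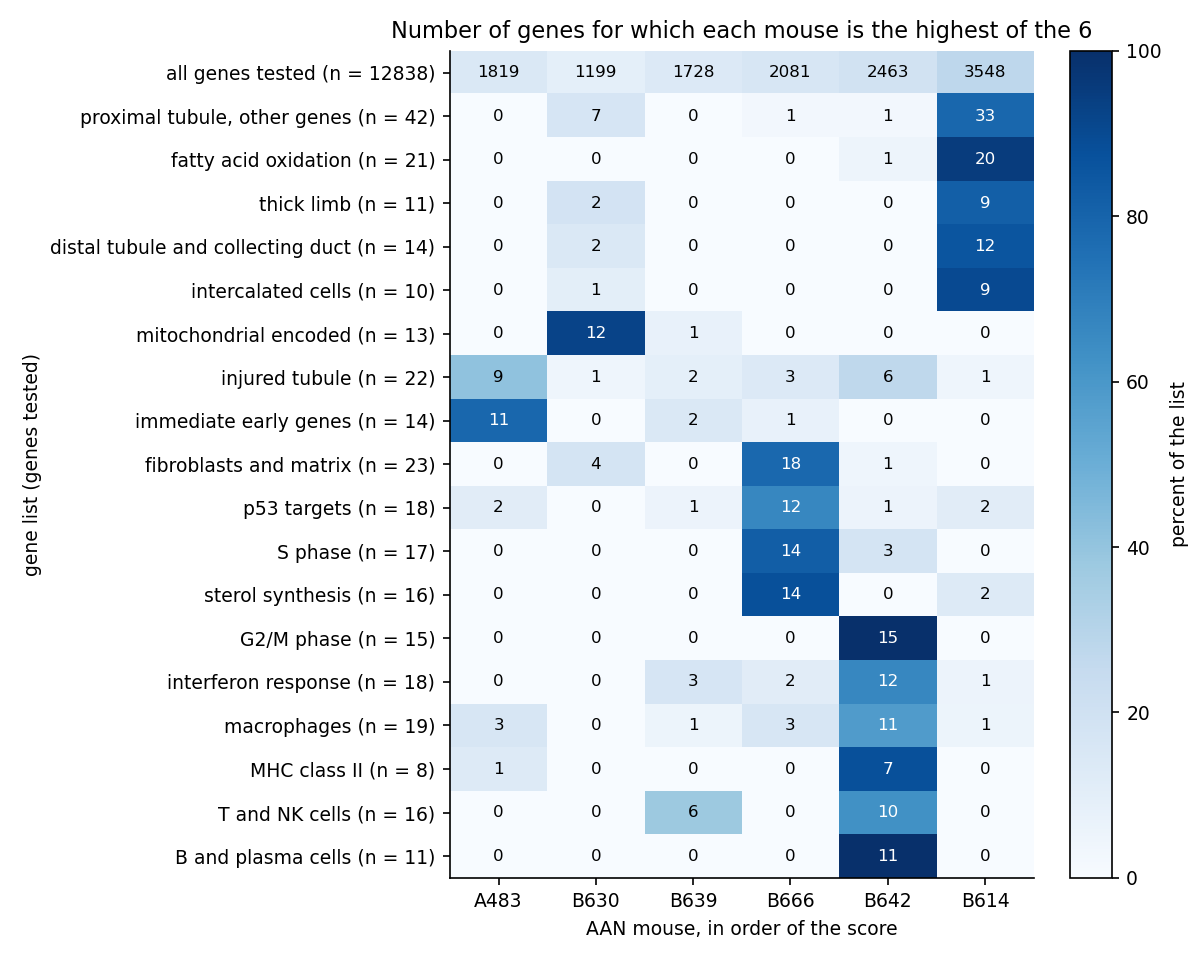
Number of genes of each list (rows, with the number tested) for which each AAN mouse (columns, in order of the score) had the highest FPKM of the 6, with the shade giving the percent of the list. B614 holds 33 of 42 other proximal tubule genes, B666 18 of 23 fibroblast and matrix genes (11 to 17 after rescaling), B642 11 of 11 B and plasma cell genes and A483 11 of 14 immediate early genes.

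The genes named for their order came from outside the lists for the most part. Over all 12838 genes tested, 13 had a rho of 1 and 20 a rho of -1. By the exact test a share of 0.00278 of all orders gives a rho of 1 or -1, and these numbers together are not above it. The named genes were picked by their rho, so their p-values are a description. Of the 15 named genes that follow, 9 had a rho of 1 (exact p = 0.00278, the smallest that 6 mice can give) and the others 0.94 (exact p = 0.0167). Pearson's r was 0.43 to 0.99 (exact permutation p = 0.00139 to 0.168) and 0.54 to 0.98 without the 2 mice farthest from the median score. None passed after adjustment, and limma called 7. After the median of ratios 7 of the 15 still passed: *Cldn2*, *Slc43a2*, *Bid*, *Uhmk1*, *Slc13a3*, *Pcx* and *Ugt3a2*. *Ren1* then did not pass (rho = 0.83, exact p = 0.0583), nor did *Pck1* and *Acsf2* (rho = 0.77, exact p = 0.103 for each). *Cldn2* (ENSMUSG00000047230, chrX:139800828-139811386, plus strand), the claudin that makes the proximal tubule leaky to sodium and water, was at 1.32, 11.999, 35.6, 43.0, 94.8 and 129 FPKM, the widest span of them all. *Ren1* (renin, ENSMUSG00000070645, chr1:133350510-133360325, plus strand), made by juxtaglomerular cells, was at 30.6, 31.5, 54.7, 58.1, 74.2 and 112 FPKM (r = 0.86, exact p = 0.00139, adjusted 0.284, and 0.88 without the 2 farthest mice). *Bid*, a proapoptotic gene, was at 3.16, 4.83, 5.97, 8.995, 9.38 and 12.6 FPKM. In each of these genes every mouse was, in the values as deposited, above the one before it in the order. *Slc43a2*, an amino acid transporter, was at 2.32, 4.03, 4.48, 6.28, 7.53 and 18.8 FPKM. *Acsf2*, an acyl-CoA synthetase, was at 6.62, 6.91, 7.78, 8.42, 9.70 and 13.3. In *Cldn2* and *Tmem127* the widest step was that from A483 to the other mice, and *Tmem127* was at 0.607 FPKM in A483 and at 15.3 to 22.7 in the others.

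Among the other genes with a rho of 1 were *Slc33a1*, *Thnsl2* and *Cmtm8*, and with 0.94 *Ugt1a7c*, *Uhmk1*, *Slc13a3*, *Pcx*, *Pck1* and *Ugt3a2*. *Pcx* (pyruvate carboxylase), which like *Pck1* serves gluconeogenesis, was at 17.0, 15.3, 20.5, 27.1, 32.9 and 130 FPKM (limma slope 1.503 ± 0.120 SE, adjusted p = 0.0109). *Ugt1a7c*, a glucuronosyltransferase, was at 3.87 to 15.7 FPKM in 5 mice and 58.5 in B614, and is uncertain because 18 annotated genes overlap it. Of the renin list, *Nos3*, the endothelial nitric oxide synthase, opposed the order, at 4.28, 4.96, 3.82, 3.11, 3.04 and 2.98 FPKM.

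The 15 named genes that oppose the order, also picked by their rho, were all lowest in B614. Of these 11 had a rho of -1 (exact p = 0.00278) and the others -0.94 (exact p = 0.0167), with r from -0.999 to -0.84 (exact p = 0.00139 to 0.00972) and -0.99 to -0.62 without the 2 farthest mice. None passed after adjustment, limma called 7, and after the median of ratios 0 of the 15 passed, with rho between -0.83 and -0.71. *Lrg1* (ENSMUSG00000037095, chr17:56119678-56122001, minus strand), a secreted glycoprotein, was at 7.23, 7.11, 6.58, 5.94, 5.39 and 2.26 FPKM (limma slope -0.83 ± 0.10 SE, adjusted p = 0.0184). *Kat2a*, a histone acetyltransferase, was at 13.9, 13.5, 13.4, 13.3, 13.01 and 8.55 FPKM, and *1810037I17Rik* at 81.8 to 88.4 in 5 mice and 40.6 in B614. Both varied little among the 5 lower mice. *Mt2* (metallothionein) was at 449, 437, 351, 387, 329 and 132 FPKM (-0.87 ± 0.13, limma adjusted p = 0.0294), and *Mt1* opposed the order too. *Dok3*, an adaptor of myeloid and B cells, was at 23.7, 22.6, 22.3, 14.4, 17.1 and 4.33 FPKM (-1.22 ± 0.12, limma adjusted p = 0.0184). The rest were *Smim26*, *Map1s*, *Stk11ip*, *Plcb3*, *Zfp598*, *Ccdc181*, *Slc12a9*, *Cep164*, *Adgrg3* and *Fkbp11*, at 2.79 to 23.9 FPKM. Of the dendritic cell list *Batf3* opposed the order, at 4.49, 4.02, 4.44, 3.44, 3.02 and 1.16 FPKM.

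*Hdac9* (ENSMUSG00000004698), the deacetylase at the centre of the study, had a mean under 1 FPKM and was not tested. It was at 0.824, 0.641, 0.523, 1.41, 0.702 and 0.288 FPKM. Its highest value was in B666, as for 16.2% of all genes tested, and its lowest in B614, as for 35.1%. Among the 10 other zinc-dependent deacetylases, *Hdac2* opposed the order (1.96% of all genes), at 14.4, 14.7, 12.1, 13.4, 10.6 and 8.43 FPKM. The limma fit called 0 of the 10.

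The genes that varied most without regard to the order were chosen by their spread (residual SD about the score, exact Spearman p above 0.3) and are given without a test. Of the 15, 7 were variable segments of the kappa light chain. *Igkv6-17* was at 4.35, 5.13, 0, 2.28, 58.3 and 2.87 FPKM, and *Igkv4-57-1* at 0.986 to 3.58 in 5 mice and 47.9 in B642. *Igkv4-91* had other high mice, B630 at 22.7 FPKM and B614 at 13.9. Over all 128 immunoglobulin genes tested, a group formed after the values were seen, 86 were highest in B642 and 20 in B614, and their median residual SD was 1.59 against 0.27 for all genes. This wider group was not chosen for lying apart from the order: its median rho was 0.37 against 0.03 for all genes, 6 followed the order (1.72% of all genes) and 0 opposed it. Their summed FPKM was 1250, 1728, 1197, 1024, 4756 and 1175. The remaining 8 were *Gm20716*, *Tmed2*, *Rsc1a1*, *Klhl26*, *Gm20708*, *Gm36961*, *Gm21092* and *Kcnj16*, each under 1 FPKM in 1 to 4 mice. *Tmed2*, a cargo receptor of the secretory path, was at 23.8, 0.182, 0.259, 0.332, 0.962 and 14.1 FPKM, and *Klhl26* at 0.073 FPKM in B639 and 6.67 to 11.9 elsewhere. All 15 were under 1 FPKM in at least 1 mouse, and 4 overlap other annotated genes.

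Among genes with a known role, the fibrinogen chains varied together across the mice, which is given as a description only. *Fgg* was at 45.5, 12.1, 26.1, 94.4, 47.5 and 1.12 FPKM, *Fga* at 24.4, 5.04, 10.7, 41.7, 21.6 and 2.25, and *Fgb* at 4.86, 1.08, 2.55, 9.55, 3.18 and 0. All 3 were highest in B666, next highest in A483 or B642 and lowest in B614, and *Fgg* spanned 84.1-fold. *Havcr1*, too, was highest in B666, as were 16.2% of all genes, and lowest in B614, as were 35.1%. None passed the test of order or limma.

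**Figure D5:**
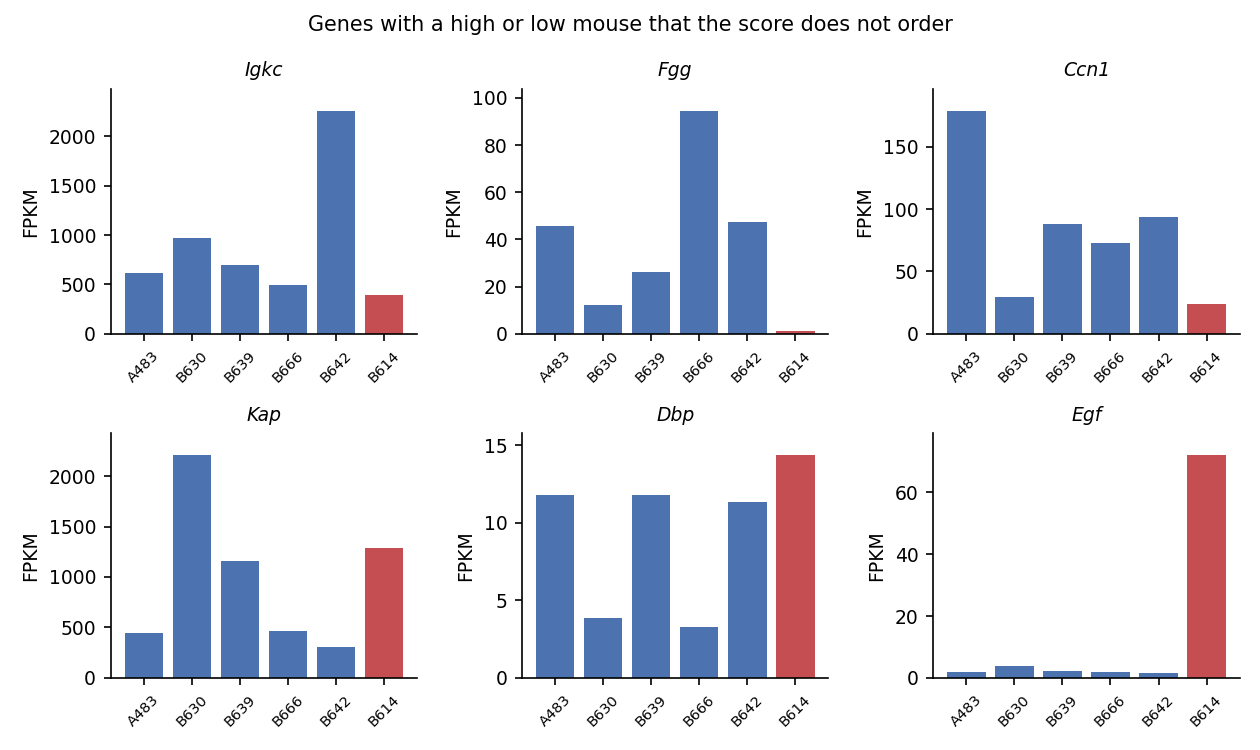
FPKM of *Igkc*, *Fgg*, *Ccn1*, *Kap*, *Dbp* and *Egf* in the 6 AAN mice, in order of the score, with B614 in red. The highest mouse is B642 for *Igkc* (2256), B666 for *Fgg* (94.4), A483 for *Ccn1* (178), B630 for *Kap* (2204) and B614 for *Dbp* (14.3) and *Egf* (71.9).

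Some genes of the circadian clock were low or high together in B630 and B666, of which 4 were picked after their values were seen. *Dbp*, a clock output gene, was at 11.8, 3.88, 11.8, 3.27, 11.3 and 14.3 FPKM, and these mice were also the lowest in *Per2* (6.47, 1.997, 4.02, 2.02, 3.46 and 3.23 FPKM). *Arntl* (BMAL1), of the opposite phase, was highest in the same mice, at 3.72, 5.55, 3.60, 7.58, 3.99 and 4.15 FPKM, and so was *Npas2*, at 1.35, 3.62, 2.18, 3.70, 1.46 and 1.19. The labels give the day but not the hour of tissue collection. Over the whole list of 15 clock genes tested, B666 was highest in 5 and lowest in 7, beside 16.2% and 3.68% of all genes. B630 was highest in 0 and lowest in 4, beside 9.34% and 36.3% of all genes. For B614 the numbers were 6 and 3, beside 27.6% and 35.1%. Of these 15 genes 0 followed or opposed the score, and limma called 1 above 0, beside 2.59% of all genes. It was *Tef*, at 1.84 to 3.70 FPKM in 5 mice and 9.40 in B614.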

How the data were processed

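Cortical RNA of the 6 AAN mice was analysed, 1 library per mouse, each with its own tag in the labels. Reads were mapped by the authors with HISAT2 to mm10, and FPKM values were computed with StringTie and compared with edgeR, per the methods and the submitters' processing notes. The deposited FPKM values hold no counts, so limma 3.58.1 in R 4.3.3 (lmFit and a robust, trended eBayes) was run on log2(FPKM + 0.1), and no scaling was added. Use of strand and of reads with several matches is not given in the sources used here, so genes that overlap or have near-identical copies are uncertain. Depth was recovered from FPKM values under 0.3, as the depth at which most of them were whole fragments within 0.05. At that depth 95.1% to 96.9% were, against a median of 2.44% to 3.46% over all depths tried for the same mouse.

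Genes with an AAN mean of at least 1 FPKM, the 7 score genes left out, were set against the score by exact Spearman and Pearson permutation tests (two-sided, Benjamini-Hochberg over all genes). A few results on single genes are not reported here. Symbols were found for 21650 of 21792 genes. Named were the score genes, the markers, the 15 genes that follow and the 15 that oppose the order with the highest absolute rho and a mean of at least 5 FPKM (ties by log2 range), the 15 with the largest residual SD at p above 0.3, and members of 38 gene lists. The members, lists and tests were chosen with earlier results of these data known, so a list's count is no independent evidence. The tests were checked on simulated data. Alternatives were other pseudocounts, filters, scalings, scores and tests, and each mouse left out. The fit on ranks and the rescaled list counts were chosen after seeing the data.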

Additional observations from a re-analysis of the deposited data

Results flagged for a closer look

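Of 60 sets of 6 values examined for a mouse far from the others (Dixon's test, 95% level), 22 had one, where chance gives about 1 in 20, or 3. The sets include the score, *Slc22a6* and the genes named for their order or their spread, so the number over 3 follows from that choice and nothing is read from it. B614 was the mouse in 15 of them, B639 in 4, A483 in 2 and B642 in 1.

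B614 stood above the rest with a score of 7.08 and with 117 FPKM of *Slc22a6*, 68.5 of *Slc13a3*, 130 of *Pcx*, 385 of *Pck1* and 145 of *Ugt3a2*. It stood below the rest with 2.26 FPKM of *Lrg1*, 40.6 of *1810037I17Rik*, 12.2 of *Smim26*, 8.59 of *Map1s*, 8.55 of *Kat2a*, 15.8 of *Zfp598*, 4.33 of *Dok3*, 132 of *Mt2* and 2.79 of *Fkbp11*. These are genes of gluconeogenesis, organic anion transport and metal binding among others, and most were named because of their order.

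The other mice stood apart in single genes. B639 had a depth of 13.4 M fragments, against 15.5 to 16.5 in the others, 0 FPKM of *Gm20716*, 0.171 of *Rsc1a1* and 0.073 of *Klhl26*. A483 had 0.607 FPKM of *Tmem127* and 5.22 of *Slc33a1*, and B642 had 47.9 of *Igkv4-57-1*.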

How the results depend on the processing

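The 5 lower mice lie close together, so the counts of genes that follow or oppose rest on an order that small changes can turn. The 221 genes that follow became 141 with the same FPKM total without mitochondrial genes, 123 with a filter of 5 FPKM, 1414 without *Slc22a8* in the score, 333 with a score of the other proximal tubule genes, 1013 by Pearson's r, 332 by limma and 0 by limma on ranks. Leaving out 1 mouse gave 56 to 800, with a rho of 1 needed among 5 mice, and 800 came without A483. The 251 that oppose became 398 with a filter of 0.1 FPKM, 108 with 5, 731 without *Slc22a8*, 453 with the other proximal tubule genes, 1173 by Pearson's r, 473 by limma and 0 by limma on ranks, and 45 to 367 with 1 mouse left out. The 805 limma calls (332 above 0, 473 under 0) became 535 with no trend and no robust fit, 0 on ranks, 481 with a filter of 0.1 FPKM and 0 to 813 with 1 mouse left out. Their split turned to 371 and 239 after the median of ratios and to 380 and 346 with a pseudocount of 1. The score gap of 1.42 was 0.19 to 1.61 with 1 mouse left out, the lowest without B614. Of the 15 genes that varied most, 8 to 11 were shared with 1 mouse left out. Members of the lists that follow (13) numbered 5 by the median of ratios, 6 by quantiles, 8 by the score of other proximal tubule genes and 3 to 30 with 1 mouse left out. Those that oppose (6) were 12 after quantile normalization and 0 to 7 with 1 mouse left out. Over all genes 1.72% followed and 1.96% opposed. The list counts are given here only for how they shift with the processing, and no excess over those shares is read from them. The sign of rho turned for *Col1a1* (-0.26 after both rescalings, -0.20 to 0.80 with 1 mouse left out), *Ptprc* (0.20 with the other proximal tubule genes, -0.70 to 0.10) and *Havcr1* (-0.30 to 0.60). The cause of these shifts was not tested. Of the named genes that follow, 7 of 15 still passed after the median of ratios, 7 of 15 after quantile normalization and 1 of 13 with the score of other proximal tubule genes. Of the 15 that oppose, 0 passed under any of these. None of either kind turned sign, which follows largely from picking them by their high absolute rho, so nothing is read from it. No paired analysis was possible because all 6 mice belong to 1 group and no other group was compared. A depth of 13.4 to 16.5 M fragments limits genes near 0 FPKM.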

Other observations

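Of 4 neutrophil genes tested 3 were lowest in B614, beside 35.1% of all genes, and limma called 2 under 0, *S100a8* and *Csf3r*, beside 3.68%. *Csf3r*, the G-CSF receptor, was at 6.98, 5.69, 7.82, 5.75, 5.97 and 1.77 FPKM (slope -0.97 ± 0.14 SE, limma adjusted p = 0.0278). Of 9 dendritic cell genes 5 were highest in B639 (6 or 7 rescaled), beside 13.5% of all genes, and 4 lowest in B614, beside 35.1%. *Ccr7*, the homing receptor of mature dendritic cells and T cells, was at 6.57, 7.50, 16.3, 6.57, 9.16 and 5.41 FPKM. Of 10 genes shared by leukocytes 7 were lowest in B614, beside 35.1% of all genes, and limma called *Cd53* under 0, beside 3.68%. Of 9 smooth muscle genes 7 were highest in B666 (4 or 5 rescaled), and of 12 complement and acute phase genes 7 were highest in B642. *C3*, the central complement protein, was at 420, 175, 372, 440, 646 and 241 FPKM.

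Of 9 podocyte genes and 14 endothelial genes 0 followed, opposed or passed limma, and their median rho was 0.09 and -0.09. Without B614 it was -0.10 for podocytes (-0.60 under each rescaling) and -0.55 for endothelium (-0.60 to -0.50 rescaled), against 0.20 for all genes (-0.10 to 0 rescaled). *Kdr*, a VEGF receptor, was at 3.89 to 5.31 FPKM in 5 mice and 9.59 in B614 (limma adjusted p = 0.0604).

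Of 12 genes of the glucocorticoid and fasting response 1 followed the order, beside 1.72% of all genes, and 2, *Mt1* and *Mt2*, opposed it, beside 1.96%. The limma fit called 3 of the 12 above 0, beside 2.59% of all genes, and 2 under 0, beside 3.68%. The median rho of the list was 0.09, against 0.03 for all genes. The gene that followed was *Igfbp1*, at 0.955, 1.14, 1.13, 2.37, 2.74 and 7.68 FPKM (slope 1.40 ± 0.20 SE, limma adjusted p = 0.0255). *Pdk4*, which spares glucose in fasting, was at 1.72, 2.17, 3.26, 1.97, 4.07 and 8.27 FPKM (0.996 ± 0.202, limma adjusted p = 0.0416). Of 15 heat shock and unfolded protein genes limma called 2 under 0, *Hspb1* and *Atf4*, beside 3.68% of all genes. Of 15 ribosomal protein genes it called 3 under 0, among them *Rpl5* and *Rpl13*, beside the same share. Of 15 hypoxia and glycolysis genes 0 followed, opposed or passed limma. Of 5 red cell genes 4 were highest in B642, beside 19.2% of all genes. In this list limma called *Slc4a1*, which intercalated cells also express, above 0, beside 2.59% of all genes. Of 15 tested genes that the study names limma called 1 above 0, beside 2.59% of all genes. It was *Calb1*, at 25.3 to 51.7 FPKM in 5 mice and 167 in B614.

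*Tmem127* was low in A483 alone, under 0.125 of the median of the other 5. That median had to reach 5 FPKM, with no other mouse under 0.5 of it, and immunoglobulin genes were left out. By this limit 5 genes were low in B630 alone, 8 in B639, 6 in B614 and 0 in B666 and B642. The limit is relative to the other mice, and *Sprr2f*, low in B614, was still at 2.09 FPKM there.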
